A study of Mus musculus with 16 samples.

Results

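Chromatin modifier and remodeller genes were followed through early head and face development in 16 RNA-seq libraries of CD1 mouse embryos. The genes were taken by symbol alone, with a fixed pattern of family names: Smarc, Arid, Pbrm1, Chd, Ezh, Eed, Suz12, Cbx, Dnmt, Tet, Hdac, Sirt, Kat, Kdm, Setd, Ehmt, Mll, Prdm, Brd and Brwd. The pattern took 131 of 15876 measured genes, under 127 symbols. Chd2, Hdac4, Mll2 and Tet1 each stood under 2 Ensembl identifiers, 1 of them retired in a later annotation, so reads may have been split between the 2 entries and their values are uncertain. Tet1 and Chd2 are therefore given with the end of their identifier. Mll1, Mll2, Mll3, Mll5 and Setd8 are the older symbols of Kmt2a, Kmt2d, Kmt2c, Kmt2e and Kmt5a.

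All libraries came from embryos of the CD1 strain, with no treatment or allele named, and each region was sequenced as 1 library at 1 stage. The E8.5 (embryonic day 8.5) regions were mesoderm, floor plate, caudal brain neural epithelium and neural epithelium outside the floor plate. Those of E9.5 were the maxillary and mandibular arches, cranial mesenchyme and epidermal ectoderm. Those of E10.5 were lateral nasal prominence, medial nasal prominence, mandibular arch, maxillary arch, olfactory pit, and neural epithelium of the lateral prominence, of the centre and of a dorsal control region. How many embryos went into a library or how the tissue was cut is not given in the labels. Read depth was above 40000000 per the labels, and no total per library was given, so the depth behind each value is unknown.

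The deposited value of a gene was its ratio to its own median over the 16 libraries, so values can be compared between libraries for 1 gene and never between genes. Values are given here as scaled ratios, meaning the deposited ratio after each library was centred on its median gene, and differences are therefore relative to the median gene of a library. A level is a deposited value divided by the gene's lowest value over the 16 libraries, where 1 is the lowest. In 32 of the 131 genes the lowest value was common to 2 or more libraries, which acts as a floor. The other 99, or 75.6%, had no shared lowest value, against 44.6% of all measured genes. Of the 32, 16 were at their floor in 9 or more libraries. In bulk tissue, fewer cells of a type and less RNA per cell cannot be told apart.

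The libraries were set against marker genes of their labelled tissue before use. The library labelled E10.5 medial nasal prominence stood apart: its neural epithelium markers had a mean log2 level of 3.34 and its neuron markers 2.91, while its facial mesenchyme and neural crest markers were at 0.431, against 2.20 to 2.78 in the other 3 E10.5 facial libraries. Neural epithelium markers had a mean log2 level of 1.5 to 3.84 in the 6 neural libraries, with facial mesenchyme markers at 0.026 to 0.277 there. They were also at 1.49 in E8.5 mesoderm and 1.45 in E9.5 maxillary arch, near the 1.5 of caudal brain. E8.5 floor plate had the distal arch markers Hand1, Hand2 and Pitx1 at 2.32, with Hand1 at a level of 49.5. Surface epithelium markers stood at 4.23 in olfactory pit and 4.08 in epidermal ectoderm, and the ectoderm also had neural epithelium markers at 2.80 and facial mesenchyme markers at 1.88. Olfactory pit also had neural epithelium markers at 3.19 and neuron markers at 3.82, the highest neuron level of the 16 libraries. Comparisons of tissue classes that include the library labelled medial nasal prominence are given with and without it. The E10.5 central and dorsal control neural libraries have file headers that name each other's region. They were placed by their titles, and both belong to the neural class. In the tests, a class is made of different regions, so each p-value measures the spread between regions and not between repeats of 1 region.

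These proteins set how DNA is packed and read. Remodelling complexes such as SWI/SNF (also called BAF) and the CHD enzymes use ATP to move or eject nucleosomes. Histone acetyltransferases, deacetylases, methyltransferases and demethylases write and erase marks on histone tails, bromodomain and chromodomain proteins read them, Dnmt enzymes methylate cytosine and Tet enzymes oxidise it. In the embryonic brain, BAF complexes are known to exchange subunits as progenitors become neurons, and mutations in Chd7, Kmt2d, Kdm6a, Arid1a and Smarca4 cause human syndromes with changes of the face.

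The promoters of the genes were compared with those of other genes, since CpG-rich promoters are typical of widely used genes. RefSeq (GRCm38.p6) promoters of 300 bases, 250 before and 50 after the start, matched 100 of the 127 symbols with 139 promoters. A CpG-rich promoter, with an observed over expected CpG ratio above 0.6 and GC above 50%, was found in 77% of them, against 65.5% of the promoters of all measured genes and 33.3% of all promoters in the table. The GC box GGGCGG, on either strand, was present in 68.3%, against 62.3% of those of measured genes and 35.7% of all. TATAAA was present in 4.32%, against 7.23% and 13.6%. The letters CCAAT stood in 37.4%, against 37.6% and 37.4%. A match describes the letters of this window and is no evidence of binding. The following are the promoters of 4 genes with clear stage differences in neural epithelium, the first pair lower at E10.5 and the other pair higher, with GC boxes in capitals.
Dnmt3b: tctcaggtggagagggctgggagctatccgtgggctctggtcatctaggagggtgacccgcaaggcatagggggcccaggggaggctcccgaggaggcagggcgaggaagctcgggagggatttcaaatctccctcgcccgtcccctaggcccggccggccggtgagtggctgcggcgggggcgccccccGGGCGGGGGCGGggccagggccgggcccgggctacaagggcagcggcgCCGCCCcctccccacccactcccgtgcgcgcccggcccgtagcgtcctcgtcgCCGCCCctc
Setd7: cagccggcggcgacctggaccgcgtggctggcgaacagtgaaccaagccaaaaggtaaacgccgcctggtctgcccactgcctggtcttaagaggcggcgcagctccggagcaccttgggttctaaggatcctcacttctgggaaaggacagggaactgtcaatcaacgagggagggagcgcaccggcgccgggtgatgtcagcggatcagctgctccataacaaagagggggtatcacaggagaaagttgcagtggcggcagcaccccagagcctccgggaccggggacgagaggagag
Tet2: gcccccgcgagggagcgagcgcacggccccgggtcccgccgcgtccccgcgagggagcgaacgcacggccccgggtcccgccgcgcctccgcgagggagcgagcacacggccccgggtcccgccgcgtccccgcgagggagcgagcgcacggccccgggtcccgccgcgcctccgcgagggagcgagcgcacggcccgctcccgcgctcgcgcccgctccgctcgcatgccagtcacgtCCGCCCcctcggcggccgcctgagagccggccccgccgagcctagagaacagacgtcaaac
Smarcc2: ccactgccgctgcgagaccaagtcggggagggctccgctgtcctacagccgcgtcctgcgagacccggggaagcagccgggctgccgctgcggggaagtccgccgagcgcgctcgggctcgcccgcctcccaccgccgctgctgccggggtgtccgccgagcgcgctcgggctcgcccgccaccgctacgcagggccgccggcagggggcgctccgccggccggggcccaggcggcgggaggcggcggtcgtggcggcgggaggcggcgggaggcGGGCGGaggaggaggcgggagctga
The Dnmt3b window (chr2:153649199-153649498, plus strand) holds 4 GC boxes and 30 CpG. That of Setd7 (chr3:51560774-51561073, minus strand) holds 0 GC boxes and 21 CpG. The Tet2 window (chr3:133544341-133544640, minus strand) holds 1 GC box and 57 CpG at 81.3% GC, and the Smarcc2 window (chr10:128458986-128459285, plus strand) holds 1 GC box and 48 CpG at 81% GC. The GC box count thus follows neither direction among these 4 genes.

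The range of chromatin genes over the 16 libraries was set beside that of all genes. The highest deposited value exceeded the lowest by a median of 3.47-fold over the 131 genes, against 3.55-fold over all genes. Among genes without a shared floor the medians were 3.49-fold for the 99 chromatin genes and 4.46-fold for all 7082 as deposited, and 2.86-fold against 3.39-fold after scaling, so there the chromatin genes had the narrower median range. The family with the widest median range was the DNA methyltransferases and Tet enzymes (6.12-fold), followed by the HP1 Cbx proteins (4.77-fold) and the SET methyltransferases (4.55-fold). The CHD remodellers (2.79-fold), bromodomain readers (2.51-fold) and Polycomb Cbx proteins (2.48-fold) had the narrowest. The 10 widest single ranges belonged to Pbrm1, Brwd1, Arid3b, Hdac5, Hdac6, Dnmt3b, Kdm6b, Prdm16, Smarcb1 and Tet3, led by Pbrm1 at 40.9-fold. No chromatin gene was at least 4-fold above each other library in 1 library.

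In E10.5 neural epithelium against E8.5 neural epithelium (3 libraries each), 15 chromatin genes were higher and 5 lower of 114 tested. That is 17.5% of them, a share near the 19.4% of all 10466 genes tested. By direction, 13.2% of the chromatin genes were called higher against 7.78% of all genes, and 4.39% lower against 11.6%. The median log2 difference was 0.235 for the chromatin genes and -0.038 for all genes. Values of the 2 stages did not overlap in 40.4% of the chromatin genes and in 41.6% of all genes. Calls are an adjusted p under 0.05 by limma over all genes tested. In the tests below the libraries are listed as lateral prominence, central and dorsal control at E10.5, and as caudal brain, floor plate and non-floor plate at E8.5.

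**Figure D1:**
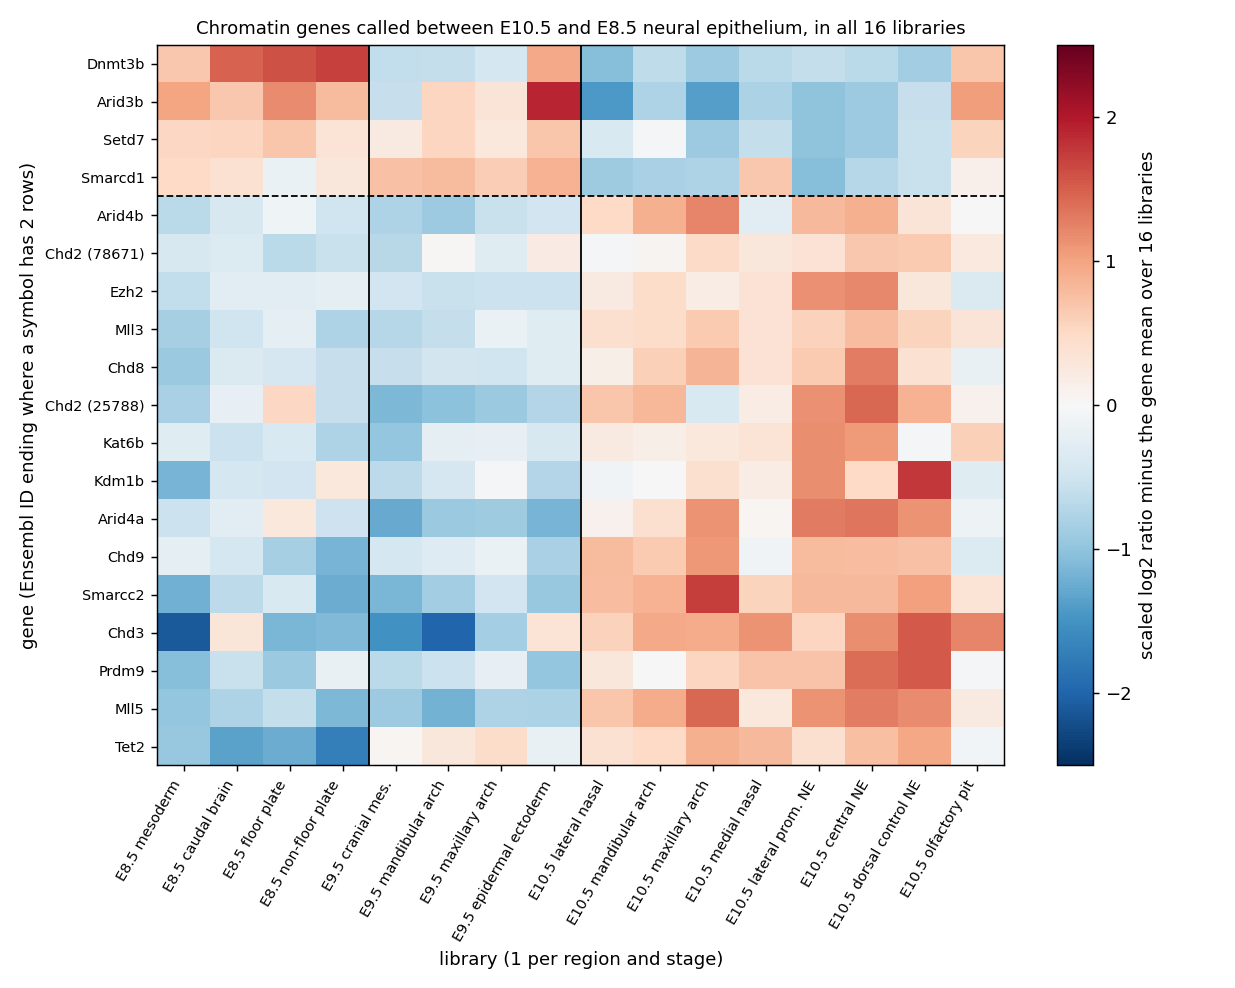
The chromatin genes described among those called in E10.5 against E8.5 neural epithelium, drawn over all 16 libraries. Each cell is the scaled log2 ratio minus the gene's mean over the libraries, on a colour scale of -2.5 to 2.5, with 4 lower genes above the dashed line and 15 higher genes below it.

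Of the 7 entries of the DNA methylation family, 1 fell and 1 rose. Dnmt3b, a de novo DNA methyltransferase, had scaled ratios of 0.869, 0.823 and 0.717 at E10.5, against 3.64, 3.95 and 4.28 at E8.5. It fell in neural epithelium, with a log2 difference of -2.30 ± 0.30 (SE; adjusted p = 0.00435), and the 2 stages did not overlap. Tet2, which oxidises 5-methylcytosine, had 1.24, 1.57 and 1.82 at E10.5, against 0.371, 0.394 and 0.286 at E8.5. Tet2 rose by 2.13 ± 0.26 (adjusted p = 0.00364), again with no overlap. Dnmt1, the maintenance methyltransferase, did not pass the test, with 1.43, 1.13 and 1.06 at E10.5 against 0.871, 0.827 and 0.765 at E8.5, a difference of 0.54 ± 0.22 (adjusted p = 0.121). Dnmt3a, the other de novo enzyme, differed by 0.81 ± 0.28 (adjusted p = 0.0802), and Tet3 by -0.44 ± 0.29 (adjusted p = 0.313). The 2 entries of Tet1 differed by 0.02 ± 0.26 (ENSMUSG00000047146, adjusted p = 0.957) and 0.20 ± 0.40 (ENSMUSG00000075009, adjusted p = 0.744).

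**Figure D2:**
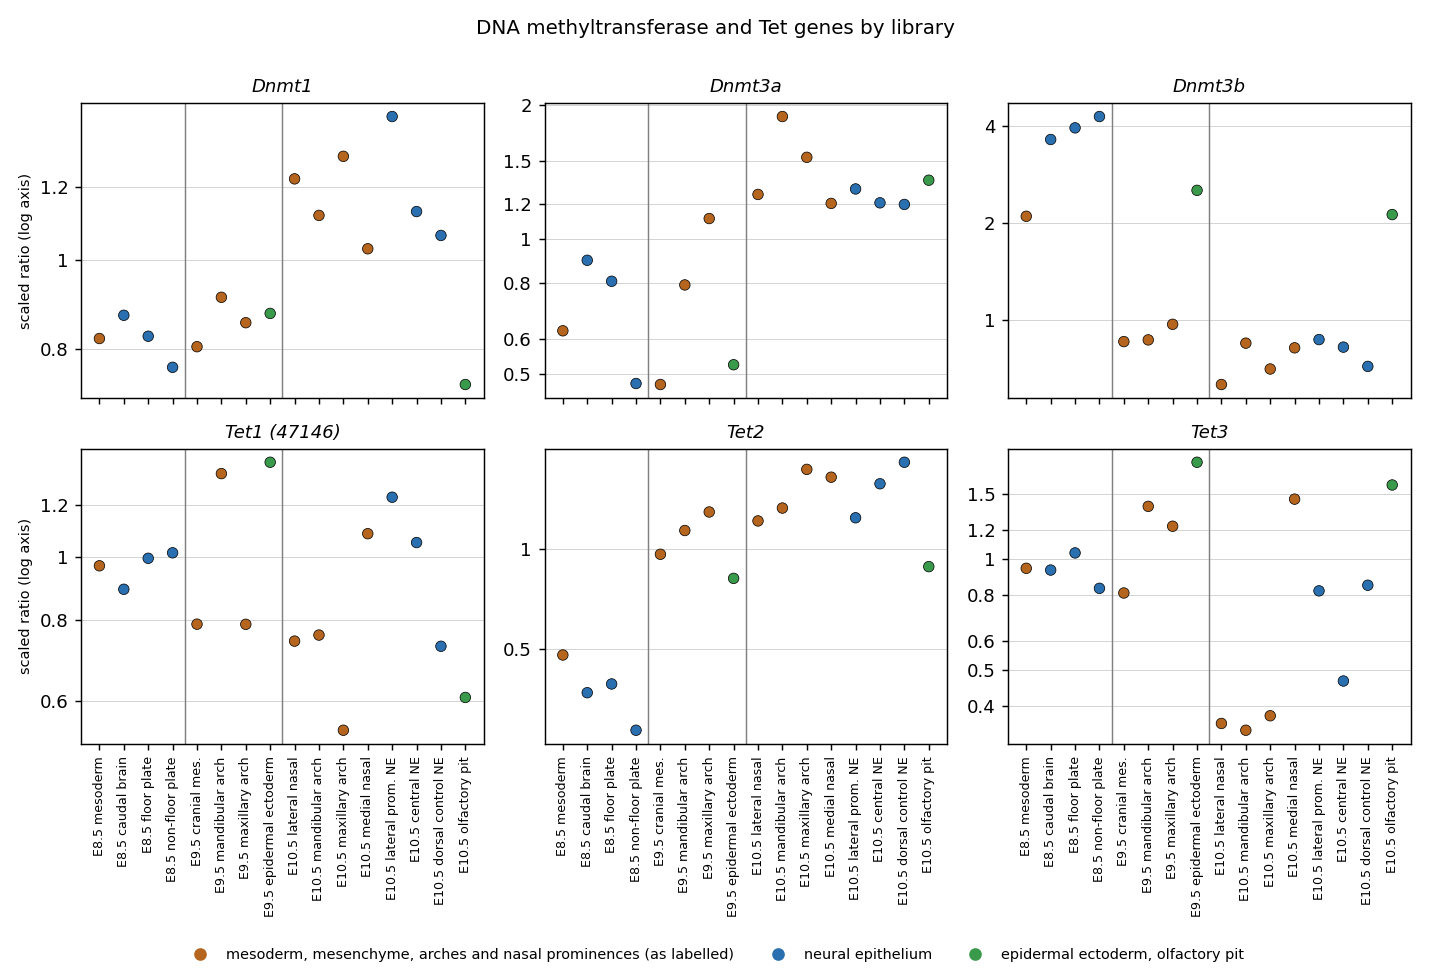
Scaled ratio (log axis) of Dnmt1, Dnmt3a, Dnmt3b, Tet1 (ENSMUSG00000047146), Tet2 and Tet3 in each of the 16 libraries, 1 point per library, with vertical lines between stages. Brown points are mesoderm, mesenchyme, arches and nasal prominences, blue points neural epithelium, and green points epidermal ectoderm and olfactory pit. Dnmt3b lies at 0.717 to 0.869 in E10.5 neural epithelium and at 3.64 to 4.28 in E8.5 neural epithelium, and Tet2 lies the other way.

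Within SWI/SNF, 1 of 14 tested subunits rose and 1 fell. Smarcc2 (BAF170), a scaffold subunit, had 1.7, 1.7 and 1.97 at E10.5, against 0.614, 0.751 and 0.413 at E8.5, and rose by 1.64 ± 0.27 (adjusted p = 0.00862). Smarcd1 (BAF60a) had 0.388, 0.497 and 0.551 at E10.5, against 1.06, 0.72 and 0.991 at E8.5, and fell, with a log2 difference of -0.94 ± 0.27 (adjusted p = 0.0453). The stages did not overlap for either gene. The ATPase Smarca4 (BRG1) differed by -0.21 ± 0.21 (adjusted p = 0.512) and the scaffold Smarcc1 (BAF155), the paralogue of Smarcc2, by 0.05 ± 0.28 (adjusted p = 0.907). Arid1a, the DNA-binding subunit of BAF, differed by 0.11 ± 0.35 (adjusted p = 0.854), Smarcb1 by -0.79 ± 0.25 (adjusted p = 0.0622) and Smarce1 by 0.70 ± 0.29 (adjusted p = 0.127). Smarca5, the ATPase of the separate ISWI complexes, differed by 0.75 ± 0.25 (adjusted p = 0.0725). Smarcd3 (BAF60c) was at its floor in 11 libraries, and its highest levels were 5.53 in the library labelled medial nasal prominence, 4.27 in dorsal control and 2.39 in central neural epithelium.

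**Figure D3:**
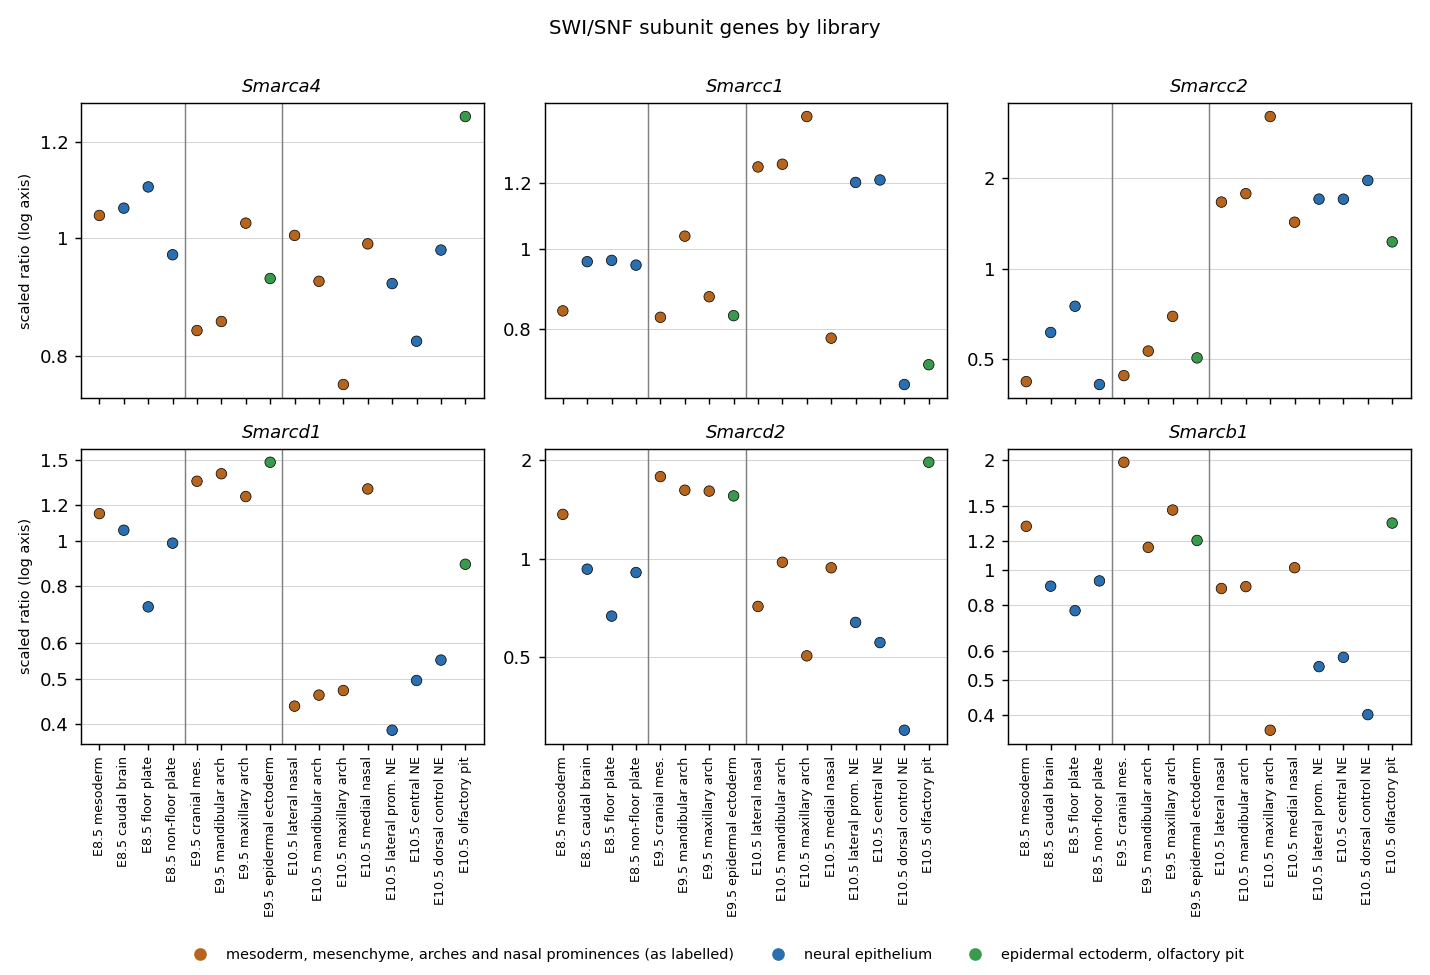
Scaled ratio (log axis) of the SWI/SNF subunits Smarca4, Smarcc1, Smarcc2, Smarcd1, Smarcd2 and Smarcb1 in each of the 16 libraries, 1 point per library, coloured brown for mesoderm, mesenchyme, arches and nasal prominences, blue for neural epithelium and green for ectoderm and olfactory pit. Smarcc2 lies higher and Smarcd1 lower at E10.5 in neural epithelium, and Smarcb1 is lowest, at 0.364, in E10.5 maxillary arch.

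The CHD remodellers were the family with the most calls by number in neural epithelium. Of 9 tested, 5 rose (55.6%), 0 fell, and all 9 had a positive difference, with a median log2 difference of 1.08. By share, the ARID genes outside SWI/SNF had more calls (60% of 5 tested). A positive difference was found in 75 of the 114 chromatin genes and in 5026 of all 10466 genes. Chd3, an ATPase of the NuRD complex, had 1.23, 1.9 and 2.44 at E10.5, against 1.04, 0.385 and 0.393 at E8.5, and rose by 1.72 ± 0.44 (adjusted p = 0.032). Chd9 had 1.66, 1.64 and 1.58 at E10.5, against 0.701, 0.538 and 0.427 at E8.5, and rose by 1.58 ± 0.25 (adjusted p = 0.0071). Chd8, a remodeller whose human gene is linked to autism, rose by 1.23 ± 0.29 (adjusted p = 0.0244), with no overlap between the stages. Both entries of Chd2 rose, by 1.24 (ENSMUSG00000025788) and 1.08 (ENSMUSG00000078671), and count here as 2 of the 5. Chd4, the main NuRD ATPase, differed by 0.46 ± 0.24 (adjusted p = 0.212) and Chd7, mutated in CHARGE syndrome, by 0.34 ± 0.26 (adjusted p = 0.372).

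Among Polycomb and HP1 genes, Ezh2 was the single call. Ezh2, the methyltransferase that places H3K27me3, had 2.54, 2.66 and 1.41 at E10.5, against 0.956, 0.966 and 0.975 at E8.5, and rose by 1.14 ± 0.32 (adjusted p = 0.041). Its partners in PRC2 did not pass: Eed differed by 0.26 ± 0.33 (adjusted p = 0.599), Suz12 by 0.75 ± 0.27 (adjusted p = 0.0847) and the paralogue Ezh1 by 0.47 ± 0.48 (adjusted p = 0.514). Cbx5 (HP1 alpha), a reader of H3K9 methylation, differed by -0.06 ± 0.23 (adjusted p = 0.882).

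Of the methyltransferases, Mll5, a SET-domain protein with no clear enzymatic activity, had 2.23, 2.46 and 2.3 at E10.5, against 0.593, 0.67 and 0.467 at E8.5. It rose by 2.03 ± 0.24 (adjusted p = 0.00345), the smallest adjusted p of any chromatin gene in this comparison. Mll3, which methylates H3K4 at enhancers, rose by 1.15 ± 0.23 (adjusted p = 0.0157). Setd7, a lysine methyltransferase of H3K4 and other proteins, had 0.385, 0.414 and 0.524 at E10.5, against 1.13, 1.24 and 0.983 at E8.5, and fell, with a log2 difference of -1.35 ± 0.24 (adjusted p = 0.0107). Mll1 (0.44, adjusted p = 0.24), Ehmt1 (0.0021, adjusted p = 0.996), Setd2 (0.26, adjusted p = 0.395) and Setdb1 (0.13, adjusted p = 0.699), given as log2 differences, did not pass.

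Of the other families, the acetyltransferase Kat6b rose by 1.30 ± 0.35 (adjusted p = 0.037), as did the H3K4 demethylase Kdm1b by 1.37 ± 0.40 (adjusted p = 0.0497). Arid4a and Arid4b, retinoblastoma-binding subunits of the Sin3 corepressor complex, rose by 1.43 and 1.01 (adjusted p = 0.0185 and 0.0302). Arid3b, an AT-rich DNA-binding factor, had 0.433, 0.466 and 0.584 at E10.5, against 1.39, 1.98 and 1.5 at E8.5, and fell, with a log2 difference of -1.71 ± 0.25 (adjusted p = 0.00549). Prdm9, known as the meiotic recombination methyltransferase, rose by 1.78 ± 0.34 (adjusted p = 0.0129) from low values: its levels were 2.38, 3.58 and 4.56 at E10.5, against 1.29, 1 and 1.43 at E8.5. No deacetylase (0 of 9), sirtuin (0 of 4) or bromodomain reader (0 of 7) passed the test, although 2 of those deacetylases, 1 sirtuin and 1 reader had an unadjusted p under 0.05. Hdac1 differed by -0.14, Hdac2 by 0.55, Sirt1 by 0.20 and Brd2 by 0.12 on the log2 scale. Kdm1a (0.35), Kdm5c (-0.65), Kdm6a (0.71), Kdm6b (-0.03), Kat5 (-0.18) and Kat6a (0.24) did not pass either.

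Of 72 tested partner genes of these complexes, 10 rose and 6 fell in neural epithelium. Bcl11a, a BAF subunit of neurons, rose by 3.82, Dpf1 (BAF45b), a subunit of the neuronal BAF complex, by 1.76, the NuRD subunit Mbd2 by 1.83 and the PRC1 subunit Bmi1 by 1.29 on the log2 scale. Mbd3, the alternative NuRD subunit to Mbd2, fell by 2.42 and the corepressor Trim28 by 1.92. The list also held the BAF genes Actl6a, Actl6b, Dpf2, Dpf3, Phf10, Ss18, Ss18l1 and Bcl11b, and none of these was called. Not every listed partner gene was tested.

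Other measures moved with this stage comparison. The 7 neuron markers had a mean log2 level, as deposited and not centred, of 1.42 to 1.88 at E10.5, against 0.564 to 0.945 at E8.5. Among them Dcx and Elavl3 were at their floor in all 3 E8.5 neural libraries. The stages overlapped for Tubb3, with levels of 2.01 to 5.27 at E10.5 and 1 to 6.77 at E8.5. They also overlapped for Stmn2, with levels of 5.19 to 9.9 at E10.5 and 5.71 to 11.3 at E8.5. The 6 blood markers had a mean log2 level of 2.43 to 2.88 at E10.5, against 0.038 to 0.334 at E8.5. Hba-x, Hbb-y and Hbb-bh1 were at their floor in all 3 E8.5 neural libraries and Gata1 at its floor in all 6 libraries. The longest transcripts of the chromatin genes called higher had a median of 7289 bases and 46.4% GC, and those called lower 4171 bases and 53.1% GC. Over all genes the medians were 4552 bases and 46.3% GC for higher calls and 2051 bases and 52% GC for lower calls. Their part in the result was not tested. The centring on the median gene sets the split: in the values as deposited, where all genes had a median log2 difference of -0.351, 6 chromatin genes were higher and 10 lower, and 360 of all genes were higher and 2021 lower, against 814 and 1214 after centring. All 20 kept their direction there and 11 kept their call. With 1 library left out at a time, 7 (without caudal brain) to 26 (without dorsal control) chromatin genes were called. Arid3b, Chd9, Dnmt3b, Mll5, Smarcc2 and Tet2 were called in all 6 cases. Setd7 and Prdm9 were called in 5, and Arid4a and Mll3 in 3. Chd3, both entries of Chd2 and Arid4b kept their call in 2 of the 6, and Chd8, Ezh2, Kat6b, Kdm1b and Smarcd1 in 1.

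In facial mesenchyme, E10.5 against E9.5, the result depended on the library labelled medial nasal prominence. With all 4 E10.5 libraries against the 3 of E9.5, 3 of 115 chromatin genes were called, against 0.604% of all genes: Chd3 rose by 2.34 ± 0.31 (adjusted p = 0.0427), Mll5 by 1.79 ± 0.31 (adjusted p = 0.045), and Arid3a fell, with a log2 difference of -1.67 ± 0.24 (adjusted p = 0.0427). Leaving out any 1 of the other 6 libraries ended these calls. The stages did not overlap in 32.2% of the chromatin genes and in 22.2% of all genes, and of 73 partner genes tested Bcl11a alone was called, higher by 3.71 on the log2 scale. Without the library labelled medial nasal prominence, 24 chromatin genes were higher and 11 lower of 114 tested, which is 30.7%, against 21% of all 10342 genes. Of all genes, 9.12% were called higher and 11.8% lower, against 21.1% and 9.65% of the chromatin genes. The stages did not overlap in 62.3% of the chromatin genes, against 43.3% of all genes. The 2 arches were sampled at both stages, and a fit of these 4 libraries alone, with the arch as a block, called 0 of 108 chromatin genes and 1 of 8685 genes. The values that follow are from this set of 3 libraries a stage, listed as lateral nasal, mandibular and maxillary at E10.5, and as cranial mesenchyme, mandibular and maxillary at E9.5.

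Remodeller genes were called in both directions. Chd3 had 1.26, 1.62 and 1.62 at E10.5, against 0.296, 0.214 and 0.471 at E9.5, and rose by 2.26 ± 0.31 (adjusted p = 0.0053). Chd9 rose by 1.15, Chd8 by 1.04, Chd6 by 1.03 and 1 entry of Chd2 (ENSMUSG00000025788) by 1.41, so 5 of 9 CHD entries rose and 0 fell. In SWI/SNF, 4 of 14 rose and 2 fell. Smarcc2 had 1.67, 1.78 and 3.21 at E10.5, against 0.442, 0.533 and 0.695 at E9.5, and rose by 1.95 ± 0.32 (adjusted p = 0.00867). Arid1a rose by 1.5, Brd7, a subunit of the PBAF form, by 1.26 and Smarce1 by 0.98. Smarcd1 had 0.437, 0.462 and 0.473 at E10.5, against 1.35, 1.4 and 1.25 at E9.5, and fell, with a log2 difference of -1.54 ± 0.17 (adjusted p = 0.00367). Smarcd2 (BAF60b) fell, with a log2 difference of -1.25 ± 0.28 (adjusted p = 0.0222). Smarca4 differed by -0.02 ± 0.20 (adjusted p = 0.947), and Chd7 by 0.46 ± 0.19 (adjusted p = 0.133).

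In the DNA methylation family, Tet3 had 0.359, 0.344 and 0.376 at E10.5, against 0.809, 1.39 and 1.23 at E9.5, and fell, with a log2 difference of -1.63 ± 0.25 (adjusted p = 0.00719), with mandibular and maxillary arch at its floor at E10.5. The Tet1 entry ENSMUSG00000075009 rose by 1.92 ± 0.35 (adjusted p = 0.012), while ENSMUSG00000047146 differed by -0.48 ± 0.28 (adjusted p = 0.244). Dnmt3b had 0.63, 0.847 and 0.704 at E10.5, against 0.856, 0.867 and 0.969 at E9.5, a difference of -0.31 ± 0.19 (adjusted p = 0.282), and Tet2 differed by 0.33 ± 0.25 (adjusted p = 0.383), so neither passed here.

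All 5 tested members of the other ARID genes were called. Arid4a, Arid4b and Arid5b, a cofactor known in mouse for roles in fat and cartilage, rose by 1.57, 1.61 and 1.29. Arid3a and Arid3b fell, with log2 differences of -1.71 and -1.28. Arid3a had 0.605, 0.787 and 0.665 at E10.5, against 1.88, 2.47 and 2.39 at E9.5, with no overlap.

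Among histone methyltransferases, Mll5 rose by 1.97 ± 0.26 (adjusted p = 0.00503), Setd5 by 1.35, Mll3 by 1.0 and Mll1 by 0.89, whereas the H3K9 methyltransferase Ehmt2 (G9a) fell, with a log2 difference of -0.81. Ezh2 rose by 0.82 ± 0.20 (adjusted p = 0.0275) and the HP1 gene Cbx1 by 0.77. For these 2 genes the direction turned on the values as deposited, at -0.0419 for Ezh2 and -0.0875 for Cbx1. The H3K27 demethylases parted: Kdm6a (UTX) rose by 1.08 ± 0.30 (adjusted p = 0.0419) and Kdm6b (JMJD3) fell, with a log2 difference of -0.98 ± 0.25 (adjusted p = 0.0334). With all 4 E10.5 libraries, Ehmt2 (-0.56) and Kdm6b (-0.41) did not pass, and their log2 differences turned to 0.107 for Ehmt2 and 0.0395 for Kdm6b when values were raised to 2 times the lowest. The H3K4 demethylase Kdm5c (-1.16), the acetyltransferase Kat7 (-0.85), the deacetylase Hdac5 (-1.44) and the sirtuin Sirt6 (-0.88) fell, with log2 differences as given. Prdm16, a regulator of palate and fat development in mouse, rose by 1.38 ± 0.36 (adjusted p = 0.0356), with levels of 4.43, 1.72 and 2.16 at E10.5, against 1.46, 1.46 and 2.65 at E9.5. These levels overlap, as do those of Prdm11, which rose by 1.44 once libraries were centred.

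Of 72 partner genes, 12 rose and 7 fell in facial mesenchyme, among them Bcl11a (3.80), Atrx (1.88) and Phc3 (1.58) upward and Prmt1 (-1.70) and Gatad2a (-1.31) downward, as log2 differences. Marker levels are as deposited and, unlike the calls, were not centred. Endothelial markers had a mean log2 level of 0.987 to 1.29 at E10.5, against 2.36 to 2.65 at E9.5. Blood markers had 4.49 to 6.09 against 4.99 to 6.94, and neural epithelium markers 0.039 to 0.449 against 0.394 to 1.45. The median log2 value of a library, as deposited, lay at -0.807 to -0.357 at E10.5, against 0.162 to 0.315 at E9.5. All of these marker levels carry that offset. Chromatin genes called higher had longest transcripts with a median of 7289 bases and 47.5% GC, and those called lower 4171 bases and 56.9% GC. For all genes the medians were 4094 bases and 46.6% GC for higher calls and 2890 bases and 52.9% GC for lower calls. Their part in the result was not tested. In the values as deposited the median gene was at -0.879, and 6 chromatin genes were higher and 45 lower. Of the 24 called higher after centring, 22 kept their direction and 6 their call, while all 11 called lower kept both. Leaving out 1 further library in turn gave 15 to 28 calls: 15 without cranial mesenchyme, 15 without E9.5 mandibular arch, 16 without E10.5 mandibular arch, 18 without E9.5 maxillary arch, 19 without lateral nasal prominence and 28 without E10.5 maxillary arch.

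The neural and the mesenchymal stage comparisons share no library. In both, the E10.5 libraries had more genes at a shared floor. Of genes with a shared floor, 63.8% to 72.4% were at it in E10.5 neural libraries, against 58.2% to 58.5% at E8.5. In facial mesenchyme the shares were 74.3% to 81.5% at E10.5, against 54.0% to 59.1% at E9.5. The median log2 value as deposited was also lower at E10.5 in both. Their part in the overlap was not tested. Of 112 chromatin genes tested in both, 10 were higher in both: Arid4a, Arid4b, Chd2 (ENSMUSG00000025788), Chd3, Chd8, Chd9, Ezh2, Mll3, Mll5 and Smarcc2. These were 66.7% of the 15 higher in neural epithelium and 43.5% of the 23 higher in mesenchyme, against 34.5% and 28.3% for all genes. Arid3b and Smarcd1 were lower in both, which is 40% of the 5 and 18.2% of the 11, against 28.3% and 27.9% for all genes. No chromatin gene was called in opposite directions, and such calls were also few among all genes. Of all genes, 11 higher and 6 lower in neural epithelium were called the opposite way in mesenchyme, against 242 and 336 called the same way. A test of whether the stage difference itself differed between the tissues cannot decide this for the 2 comparisons. Its early mesenchyme was E8.5 mesoderm, 1 library, and no E9.5 library entered. Its late mesenchyme included the library labelled medial nasal prominence. The 2 comparisons span different stages, from E8.5 in neural epithelium and from E9.5 in mesenchyme.

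**Figure D4:**
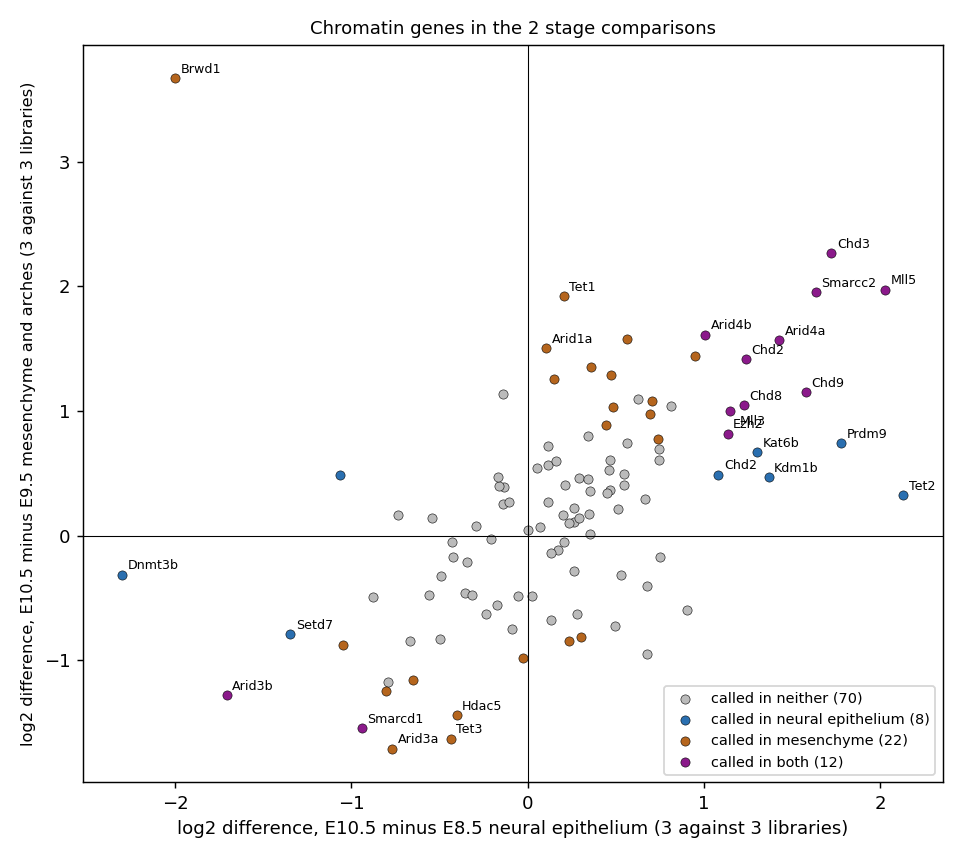
Log2 difference of each chromatin gene tested in both stage comparisons: neural epithelium, E10.5 minus E8.5, on the x axis, and facial mesenchyme, E10.5 minus E9.5 without the library labelled medial nasal prominence, on the y axis. Labels name some of the called genes. Colours mark the 12 genes called in both, 8 in neural epithelium alone, 22 in mesenchyme alone and 70 in neither. No gene called in both has differences of opposite sign.

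The number of chromatin genes called between neural epithelium and mesenchyme depended on the libraries used and on the centring. At E10.5 with all 7 libraries, 0 of 116 chromatin genes and 0 of 10184 genes (0%) were called by limma, with 8 and 1065 at an unadjusted p under 0.05. Without the library labelled medial nasal prominence, 3 of 112 chromatin genes were called, 2 higher and 1 lower, against 6.18% of all genes (2.63% higher and 3.55% lower). In the values as deposited, without that library, 13 chromatin genes were higher and 1 lower, and 979 of all genes were higher and 190 lower. The values that follow are after centring. The H3K9 demethylase Kdm4c had 1.2, 1.21 and 1.28 in neural epithelium, against 0.476, 0.446 and 0.381 in facial mesenchyme, and was higher by 1.51 ± 0.25 (adjusted p = 0.0113). The class IIa deacetylase Hdac5 had 0.653, 0.832 and 1.13 in neural epithelium, against 0.189, 0.325 and 0.295 in mesenchyme, and was higher by 1.69 ± 0.37 (adjusted p = 0.0329). Arid5b had 0.929, 0.837 and 0.836 in neural epithelium, against 1.93, 2.01 and 3.35 in mesenchyme, and was lower, with a log2 difference of -1.44 ± 0.29 (adjusted p = 0.0248). The tissues did not overlap for these 3 genes. They did not overlap for 24 of the 112 chromatin genes (21.4%), 18 higher and 6 lower, against 29.3% of all genes. With all 7 libraries the shares were 9.48% of the chromatin genes and 9.99% of all genes. Over the 14 neural and mesenchymal libraries of all stages, with stage in the fit, 0 of 119 chromatin genes were called by limma, against 0.96% of all genes (0.464% higher and 0.496% lower), and 16 had an unadjusted p under 0.05. No neural library was sampled at E9.5, so the tissue difference in this fit rests on E8.5 and E10.5. At E8.5 the mesenchymal class was mesoderm, 1 library. Without the library labelled medial nasal prominence, 5.72% of all genes were called (2.74% higher and 2.99% lower), and Kdm4c (1.2 ± 0.25, adjusted p = 0.0124) and Kdm1b (1.0 ± 0.27, adjusted p = 0.048) were higher in neural epithelium, with overlap between the classes. Taken without regard to stage, the classes did not overlap in 0 of 119 chromatin genes, against 3.45% of all genes. With that library the classes did not overlap in 0 of 119 chromatin genes either, against 0.912% of all genes. Among partner genes, the PRC1 ubiquitin ligase subunit Ring1 was higher by 1.99 and the BAF subunit Ss18 lower at -1.41 in E10.5 neural epithelium against mesenchyme without that library, as log2 differences, and with it 0 of 72 partner genes were called by limma, with 4 at an unadjusted p under 0.05.

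Single regions were set side by side where the design pairs them, with 1 library each and no test. Only genes whose level reached 5 in the library where they were higher were counted, so a gene high in 1 of the 2 libraries alone enters through that library. Such a gene was taken as differing at a fold of 2 or more relative to the median gene, and shares are of the genes that reached that level. The median gene here is that of the 2 libraries compared, so a fold differs somewhat from the quotient of the scaled ratios. Hdac5 varied between the E8.5 neural regions. It stood at 2.6 in floor plate, against 0.474 in non-floor plate epithelium, 5.25-fold higher. Setd8, the H4K20 monomethyltransferase, and Tet1 (ENSMUSG00000075009) were each 2.51-fold higher in floor plate. These 3 of 14 chromatin genes compare with 37.8% of all genes. In caudal brain against non-floor plate epithelium, 3 of 12 differed, against 34% of all genes: the cytoplasmic tubulin deacetylase Hdac6 was 7.83-fold and Kdm4c 2.03-fold lower, and Hdac5 was 2.34-fold higher. In E8.5 mesoderm against the same library, 3 of 14 were lower, against 37.3% of all genes differing: Hdac6 (7.75-fold), Kdm4c (2.11-fold) and Dnmt3b (2.1-fold). These comparisons share the non-floor plate library, where Hdac6 was at 4.18, above its 0.554 to 2.8 in the other 15 libraries.

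Surface epithelia were set beside mesenchyme of the same stage, and in neither pair was the share of chromatin genes that differed above that of all genes. In E9.5 epidermal ectoderm against cranial mesenchyme, 5 of 18 chromatin genes differed, against 48.8% of all genes, each of them higher in ectoderm: Arid3b (5.5-fold), Hdac5 (4.01-fold), Chd3 (3.54-fold), Dnmt3b (2.87-fold) and Tet3 (2.2-fold). Of all genes, 469 were higher and 932 lower there, and the median chromatin gene without a shared floor had a log2 difference of 0.281. In E10.5 olfactory pit against lateral nasal prominence, 6 of 12 differed, against 58.2% of all genes, each of them higher in olfactory pit: Arid3b (5.27-fold), Hdac5 (4.54-fold), Tet3 (4.21-fold), Kdm6b (3.3-fold), Dnmt3b (3.21-fold) and Smarcd2 (2.64-fold). Most genes counted in that pair lay the same way, 875 of all genes higher and 196 lower, and the median chromatin gene without a shared floor had a log2 difference of -0.104. The median log2 value as deposited was 0.171 in olfactory pit, against -0.357 in lateral nasal prominence, and 0.299 in ectoderm, against 0.162 in cranial mesenchyme. Neural epithelium markers were at 3.19 in olfactory pit, against 0.131 in lateral nasal prominence, and neuron markers at 3.82, against 0. In ectoderm neural epithelium markers were at 2.80, against 0.824 in cranial mesenchyme. Their part in these folds was not tested. Arid3b, Hdac5, Dnmt3b and Tet3 stood in both lists, which share no library. Each entered through its level in the epithelial library, and the share of all genes standing in both lists was not counted. In olfactory pit against epidermal ectoderm, 2 of 18 were lower, Tet1 (ENSMUSG00000047146, 2.28-fold) and Hdac5 (2.03-fold), against 37% of all genes differing.

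Between the arches, few chromatin genes were counted as differing. In E9.5 mandibular against maxillary arch 0 of 19 chromatin genes differed, against 22.7% of all genes. At E10.5 the same pair differed at 1 of 2, Pbrm1, against 66.7% of all genes. In E10.5 against E9.5 mandibular arch 9 of 17 differed, against 70.9% of all genes. Of all genes 278 were higher and 1035 lower, and of the chromatin genes 8 were lower at E10.5, led by Tet3 (at least 3.9-fold), Arid3a (3.04-fold), Smarcd1 (2.94-fold), Kdm6b (2.75-fold) and Kat7 (2.7-fold). In E10.5 against E9.5 maxillary arch 11 of 12 differed, against 77.9% of all genes. Here 228 of all genes were higher and 1360 lower, and 10 of the chromatin genes were lower at E10.5, led by Pbrm1 (15.2-fold), Smarcb1 (3.91-fold), Hdac3 (3.67-fold), Arid3a (at least 3.49-fold) and Hdac5 (3.19-fold). Over the chromatin genes without a shared floor, whatever their level, the median log2 difference was 0.236 in mandibular and 0.432 in maxillary arch. The median log2 value of a library, as deposited, lay at -0.677 in E10.5 mandibular and -0.807 in E10.5 maxillary arch, against 0.262 in E9.5 mandibular and 0.315 in E9.5 maxillary arch, so fewer genes reached a level of 5 at E10.5. Its part in these counts was not tested.

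A pair of genes lay either near the lowest value or far above it. Brwd1, a bromodomain protein, was at its floor in E9.5 mandibular and maxillary arch, in the library labelled medial nasal prominence, and in lateral prominence and dorsal control neural epithelium. Its level was 15.9 to 33.3 in the other 11 libraries, with none between. Brwd1 was thus at least 37.0-fold higher in E10.5 than in E9.5 mandibular arch and at least 38.1-fold higher in maxillary arch, while cranial mesenchyme at E9.5 already had a level of 17.1. In the mesenchymal stage comparison without the library labelled medial nasal prominence, Brwd1 rose by 3.67 ± 1.06 (adjusted p = 0.0473). Pbrm1, the defining subunit of PBAF, had a level of 22.8 to 40.9 in 15 libraries and 1 in E10.5 maxillary arch, where it was 26-fold below mandibular arch of the same stage. Since 1 library alone held that value, it cannot be told whether it is a floor.

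**Figure D5:**
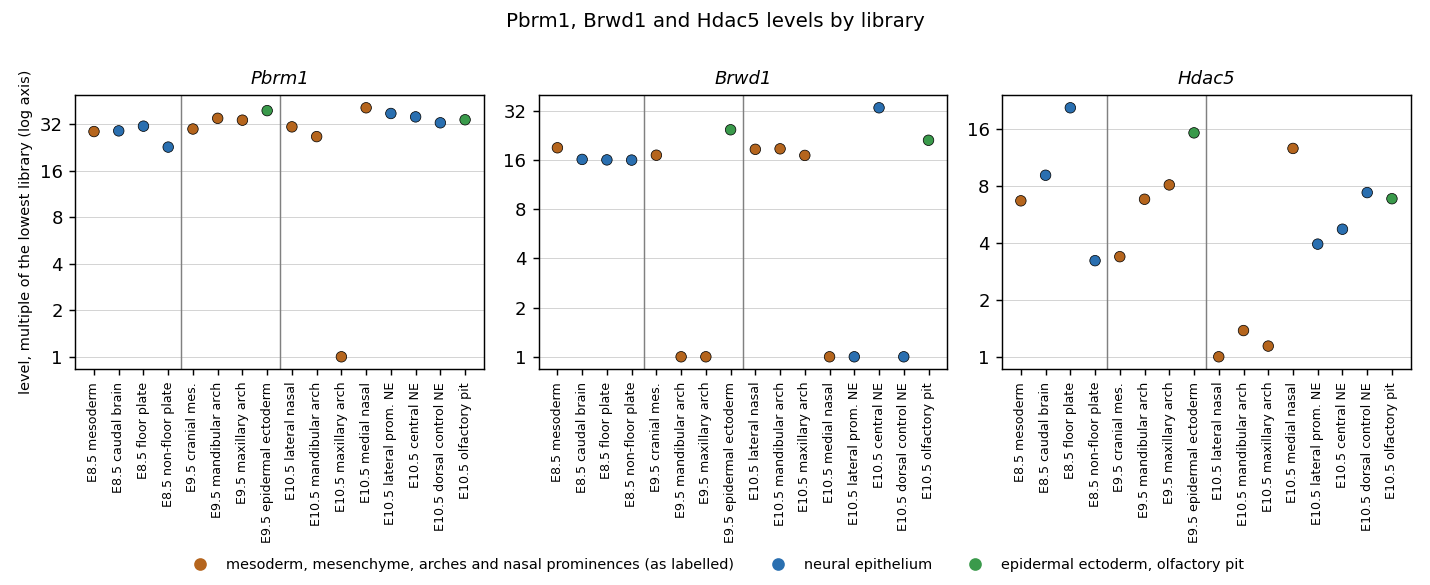
Level (deposited value over the gene's lowest value, log axis) of Pbrm1, Brwd1 and Hdac5 in each of the 16 libraries, 1 point per library. Brwd1 is at 1 in 5 libraries and at 15.9 to 33.3 in the other 11, Pbrm1 is at 1 in E10.5 maxillary arch alone, and Hdac5 spreads from 1 to 20.8.

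Other listed genes are given by the range of their levels. Prdm16 was at its floor in the 4 E8.5 libraries and in central neural epithelium, and reached levels of 11.2 in the library labelled medial nasal prominence and 8.86 in dorsal control neural epithelium. Prdm1, a repressor known for its role in neural crest and germ cells, had levels of 1 to 1.17 over the 16 libraries. Cbx2, a Polycomb reader of H3K27me3, ranged over levels of 1 to 4.37 and Hdac9 over 1 to 2.86. The 2 entries of Mll2, the Kabuki syndrome methyltransferase, ranged over 1 to 4.64 (ENSMUSG00000069564) and 1 to 3.02 (ENSMUSG00000048154).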

How the data were processed

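Total RNA of 16 CD1 embryo regions was extracted (ZR RNA MicroPrep, Zymo) and sequenced on an Illumina HiSeq with single-end reads of 50 bases, per the labels' protocols. The submitters' processing notes name Bowtie, TopHat, TopHat2, Cufflinks and mm9, with no versions. The authors deposited 1 ratio per gene and library, the value over the gene's median in the 16 libraries (median 1 within 1e-06). The unit before that division is not stated. FPKM had been planned for, so the ratios were tested without a pseudocount.

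Here log2 ratios were centred on each library's median over genes with no shared lowest value, and compared by limma 3.58.1 with its mean-variance trend option (R 4.3.3), over genes above their lowest value in at least 3 libraries. Calls are a Benjamini-Hochberg adjusted p under 0.05 over all genes fitted. The scripts were tested on simulated data. Pairs of single libraries have no test. Depth per library is unknown, so no counting interval was given. Alternatives covered values as deposited, gene filters, a raised floor, no trend, other thresholds and each library left out.

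The members, families, partner genes and markers were chosen with earlier results of these data known. Genes were named if called, if among the 10 widest ranges, if in a set list of well-known genes, if all-or-none over the libraries, or if among the 5 largest folds per direction in a pair. A few genes that met this rule are not reported here. Transcript lengths came from GENCODE M21, which held 127 of the 131 identifiers.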

Additional observations from a re-analysis of the deposited data

Results flagged for a closer look

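Among the 4 E10.5 facial libraries, 11 of 131 chromatin genes had 1 library far from the other 3, with a gap over the class's whole range above Dixon's critical value for 4 samples. About 1 in 20 such groups passes by chance. In 7 genes that library was the one labelled medial nasal prominence: Brwd1 (0.936), Tet3 (0.937), Smarcd1 (0.928), Arid5a (0.875), Cbx5 (0.866), Ehmt2 (0.862) and Prdm2 (0.831). Tet3 had 1.45 there as a scaled ratio, against 0.344 to 0.376 in the other 3, Smarcd1 1.3 against 0.437 to 0.473, and Cbx5 1.54 against 0.612 to 0.693. Arid5a was at its floor in 15 of the 16 libraries, among them the medial nasal, mandibular and maxillary ones, so its gap (0.852 against 1.6 to 1.75) comes from the centring of libraries and shows no difference in the gene. Prdm2 spanned 1.07 to 1.2 over all 4. In 4 genes it was maxillary arch: Pbrm1 (0.938), Smarcb1 (0.872), Chd1 (0.864) and Eed (0.84). Smarcb1 had 0.364 there, against 0.89 to 1.02 in the other 3, whereas Chd1 and Eed spanned 0.855 to 1.09 and 0.786 to 0.949 over all 4.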

How the results depend on the processing

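The labels give no replicate numbers, so no replicate number could be a block. The 2 arches pair by region across stages, and a fit of these 4 libraries with the arch as a block called 1 of 8685 genes and 0 of 108 chromatin genes. The fits as deposited without the library labelled medial nasal prominence, those that left out a further library, and the test of the stage difference between tissues were chosen after seeing the data. In E10.5 against E8.5 neural epithelium no setting moved the total counts by over 1.5 times except leaving out a library, which gave 686 to 1952 genes and 7 to 26 chromatin genes. The counts by direction moved further as deposited: 360 genes higher and 2021 lower, against 814 and 1214, and 6 chromatin genes higher and 10 lower, against 15 and 5. Over the called genes and alternatives there, 165 values kept direction and call and 74 lost the call. As deposited, 37.5% of called chromatin genes were higher, against 75% after centring (15.1% and 40.1% of all called genes). In E10.5 against E9.5 mesenchyme, 65 genes and 3 chromatin genes became 175 and 1 as deposited, 2167 and 35 without the library labelled medial nasal prominence, and 5276 and 51 with both changes, where 11.8% of called chromatin genes were higher, against 68.6% once centred (3.77% and 43.5% of all called genes). Leave-one-out gave 0 to 2167 genes and 0 to 35 chromatin genes. Ehmt2 (0.107) and Kdm6b (0.0395) reversed when values were raised to 2 times the lowest, as did Cbx1 (-0.0875) and Ezh2 (-0.0419) as deposited without that library. In E10.5 neural epithelium against mesenchyme, 0 genes and 0 chromatin genes became 588 and 3 without it, and 1169 and 14 as deposited without it (leave-one-out 0 to 588 and 0 to 3). Across stages, 120 genes became 43 as deposited, 29 without tied genes, 45 with the raised floor, 703 without that library and 564 as deposited without it, with 2 and 2 chromatin genes in place of 0 in the last 2 (leave-one-out 0 to 703 and 0 to 2, with 0 genes without E8.5 mesoderm). The cause was not tested.

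Counts between single libraries follow their thresholds. At a fold of 3, chromatin genes fell to 1 in floor plate, 1 in caudal brain and 1 in mesoderm against non-floor plate, 3 in mandibular arch between stages, 3 in ectoderm against mesenchyme and 0 in olfactory pit against ectoderm. All genes then numbered 457 in caudal brain, 231 between E9.5 arches, 799 and 879 between stages in mandibular and maxillary arch, 694 in olfactory pit against lateral nasal prominence and 474 against ectoderm. At a level of 2, genes and chromatin genes numbered 1954 and 10 in floor plate, 1565 and 6 in caudal brain, 2112 and 6 in mesoderm, 1356 and 3 between E9.5 arches, 1768 and 9 between E10.5 arches, 2407 and 21 between stages in mandibular and 2582 and 26 in maxillary arch, 2894 and 15 in ectoderm, 2129 and 13 in olfactory pit against lateral nasal prominence, and 2063 and 15 against ectoderm. As deposited, 16 chromatin genes differed between stages in mandibular arch and 4 in olfactory pit against ectoderm. Depth per library is unknown, and low values are limited by the floor.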

Other observations

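The 2 entries of 1 symbol did not always move together. In E10.5 maxillary arch Tet1 had a scaled ratio of 3.21 under ENSMUSG00000075009 and of 0.542 under ENSMUSG00000047146. In E9.5 epidermal ectoderm the values were 0.817 and 1.4. After centring, E10.5 maxillary arch held the highest scaled ratio of more of the 99 chromatin genes without a shared floor (23) than any other library, while in the values as deposited it held the lowest of 38 and the highest of 1. Of all genes without a shared floor, 14.5% were highest there after centring and 35.6% were lowest there as deposited.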
